A study of Mus musculus with 12 samples.

Results

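The genes described here encode the ephrin, semaphorin, netrin and Slit guidance cues and their receptors, measured in mouse embryonic stem (ES) cells with and without Dicer. They were found on the array by the start of the gene name: Efna and Efnb (ephrin ligands), Epha and Ephb (Eph receptors), Sema, Plxn (plexins), Ntn (netrins), Unc5, Slit and Robo, each followed by the code of a family member, with the unrelated Slitrk genes left out. The array carried 65 such genes, and the 58 with a probe well above background on 2 or more of the 12 arrays were kept, each through its brightest probe. Of these 58 genes, 55 met the signal filter of the test, out of 20048 genes tested in the whole series, and 49 were well above background on all 12 arrays. The families were 5 ephrin-A and 3 ephrin-B ligands, 7 EphA and 5 EphB receptors, 19 semaphorins, 8 plexins, 2 netrins, 2 Unc5 receptors, 3 Slits and 4 Robo receptors. Epha3, Robo2 and Sema3d were too dim to be tested, and Epha5, Epha10, Sema3a, Ntng1, Ntng2, Unc5c and Unc5d were not well above background on 2 arrays.

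These proteins tell a cell where its neighbours are. Ephrins sit on the cell surface and bind Eph receptor tyrosine kinases on the touching cell, and the signal runs into both cells. Semaphorins are secreted or membrane-bound and act mainly through plexins, netrins act through Dcc and Unc5 receptors, and Slits act through Robo receptors; each system is best known for steering axons and is also used in the sorting of embryonic tissues and in blood vessels.

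Per the labels, RNA came from ES cells grown on gelatin with leukemia inhibitory factor. The groups were Dicer-null lines whose labels say that they overexpress Dnmt3a and 3b, which are DNA methyltransferases, Dicer-null lines labelled the same way for Dnmt1, their Dicer-null parents, and wild-type ES cells. The first 3 groups each existed in the Dicer-null cultures 27G5 and 27H10, called clones below, and all 3 lack Dicer, the nuclease that cuts microRNA precursors; the wild type was 1 RNA. The strain, the deleted allele, the expression constructs and the relation of the clones to the wild-type cells are not given in the sources used here. Each pairing was hybridised on 2 arrays with the dyes exchanged, so each comparison has 1 log2 ratio from each clone, and values below are mean log2 ratios ± SD over the clones (n = 2) unless named otherwise. In per-array values the first is from the array with the first-named cells in the red dye. A gene is called when its adjusted p from limma, over all genes tested, is under 0.05, and these p-values measure the spread between these samples, with none of the wild type's own.

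The median signal was 112 to 135 in green and 234 to 334 in red over the 12 arrays. All 8 ES cell markers were well above background on all 12 arrays. Of these, 7 were called higher in Dicer-null than in wild-type cells, against 20.4% of all genes. One Dicer1 probe was at -4.13 in 27G5 and -4.02 in 27H10 in Dicer-null over wild-type cells, and the brighter one was at -0.53 ± 0.04. The brightest methyltransferase probes did not follow the labels. Dnmt3a was at -1.03 ± 0.92 and Dnmt3b at -1.04 ± 0.59 in the lines labelled Dnmt3a,3b over Dicer-null cells. The 2 dimmer Dnmt3a probes disagreed there: one was at -0.12 in 27G5 and -1.33 in 27H10, and the other at 0.19 and 0.21. In the lines labelled Dnmt1, Dnmt1 was at 0.27 ± 0.23 and did not pass. Whether these probes lie within the expressed constructs is not given in the sources used here, so the lines are named by their labels throughout. The arrays with wild-type RNA shared 1 slide, while the other arrays of each clone had a slide of their own, so the 2 factors, slide and clone, cannot be told apart for the labelled lines.

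The promoters of 5 genes are printed here because Efna5, Sema3e, Epha4, Sema7a and Robo4 were among the largest differences and because CpG dinucleotides, the substrate of the Dnmt enzymes, vary widely among them. Each is the 250 bases before the gene's start in RefSeq on GRCm38.p6, 5′ to 3′ on the gene's strand, with each CpG in capitals. Efna5 is at chr17:62881318-62881567 on the minus strand, Sema3e at chr5:14025026-14025275 on the plus strand, Epha4 at chr1:77515089-77515338 on the minus strand, Sema7a at chr9:57939862-57940111 on the plus strand and Robo4 at chr9:37401722-37401971 on the plus strand.
Efna5: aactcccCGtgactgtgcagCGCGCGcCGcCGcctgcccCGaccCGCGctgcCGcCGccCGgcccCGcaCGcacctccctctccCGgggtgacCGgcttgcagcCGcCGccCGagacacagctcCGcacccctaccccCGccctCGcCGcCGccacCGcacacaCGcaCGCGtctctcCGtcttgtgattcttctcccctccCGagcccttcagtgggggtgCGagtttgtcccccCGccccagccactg
Sema3e: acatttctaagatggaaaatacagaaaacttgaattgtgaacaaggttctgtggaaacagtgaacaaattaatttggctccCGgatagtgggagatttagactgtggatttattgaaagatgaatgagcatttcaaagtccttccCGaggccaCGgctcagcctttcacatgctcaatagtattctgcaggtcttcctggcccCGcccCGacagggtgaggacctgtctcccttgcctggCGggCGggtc
Epha4: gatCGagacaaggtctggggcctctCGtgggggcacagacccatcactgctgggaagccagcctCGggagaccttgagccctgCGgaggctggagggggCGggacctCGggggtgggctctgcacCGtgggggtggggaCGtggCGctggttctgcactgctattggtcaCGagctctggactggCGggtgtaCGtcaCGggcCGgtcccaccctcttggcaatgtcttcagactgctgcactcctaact
Sema7a: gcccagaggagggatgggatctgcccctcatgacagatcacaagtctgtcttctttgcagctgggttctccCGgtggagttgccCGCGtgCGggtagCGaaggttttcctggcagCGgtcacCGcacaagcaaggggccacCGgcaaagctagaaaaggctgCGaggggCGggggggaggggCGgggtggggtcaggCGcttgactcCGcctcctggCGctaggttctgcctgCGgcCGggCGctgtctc
Robo4: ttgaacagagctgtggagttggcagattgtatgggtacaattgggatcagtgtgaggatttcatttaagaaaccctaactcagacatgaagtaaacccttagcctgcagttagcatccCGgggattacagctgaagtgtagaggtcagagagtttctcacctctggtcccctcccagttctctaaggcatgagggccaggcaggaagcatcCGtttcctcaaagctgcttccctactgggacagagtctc
These stretches hold 32 CpG in Efna5, 7 in Sema3e, 14 in Epha4, 17 in Sema7a and 2 in Robo4.

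The RefSeq table had a promoter window of 300 bases (250 before and 50 after the start) for 50 of the 58 genes, 66 windows in all. The median window of a guidance gene held 18.5 CpG, against 7 over all 32851 windows of the table. All windows together belong to 27025 genes, taken without regard to signal on these arrays, while the guidance genes were kept for such signal. The part of that filter in this difference and in the motif shares below was not tested. For genes called lower in Dicer-null over wild-type cells, the median was 22.5 CpG in 22 windows of 19 genes. For those called higher it was 20 in 8 windows of 7 genes, and for those that did not pass 15 in 31 windows of 21 genes. A gene with several starts counts once per window, so these are not medians over genes. Among those that did not pass, the Sema4a windows held 7, 14, 5 and 4 CpG and the Sema4d windows 3, 3 and 2. Whether the groups differ was not tested. The extremes were Epha8 with 56 CpG and Robo4 and a Sema4d window with 2. On either strand, the letters GGGCGG, the core of the GC box, were in 71.2% of the guidance windows, against 35.7% of all windows. The letters TATAAA were in 3.03%, against 13.6% of all windows, and ATGCAAAT, the octamer, was in 0 of 66 windows, against 1.74% of all. DNA methylation was not measured in these files.

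Loss of Dicer was compared with the wild type first. In Dicer-null cells 23 of the 55 tested guidance genes were called lower and 8 higher than in wild-type cells, while 24 did not pass. Over all 20048 genes 40.4% were called, 20.1% lower and 20.4% higher. The median log2 ratio was -0.26 over the 55 guidance genes and 0.01 over all genes tested. Of the 49 genes well above background on all 12 arrays, 19 were called lower and 8 higher. All 31 called genes had 1 sign on their 4 arrays. The count rests on both clones: it was 16 without the 27G5 ratio and 13 without the 27H10 ratio. In such total RNA, fewer cells of a type and less RNA per cell cannot be told apart.

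**Figure D1:**
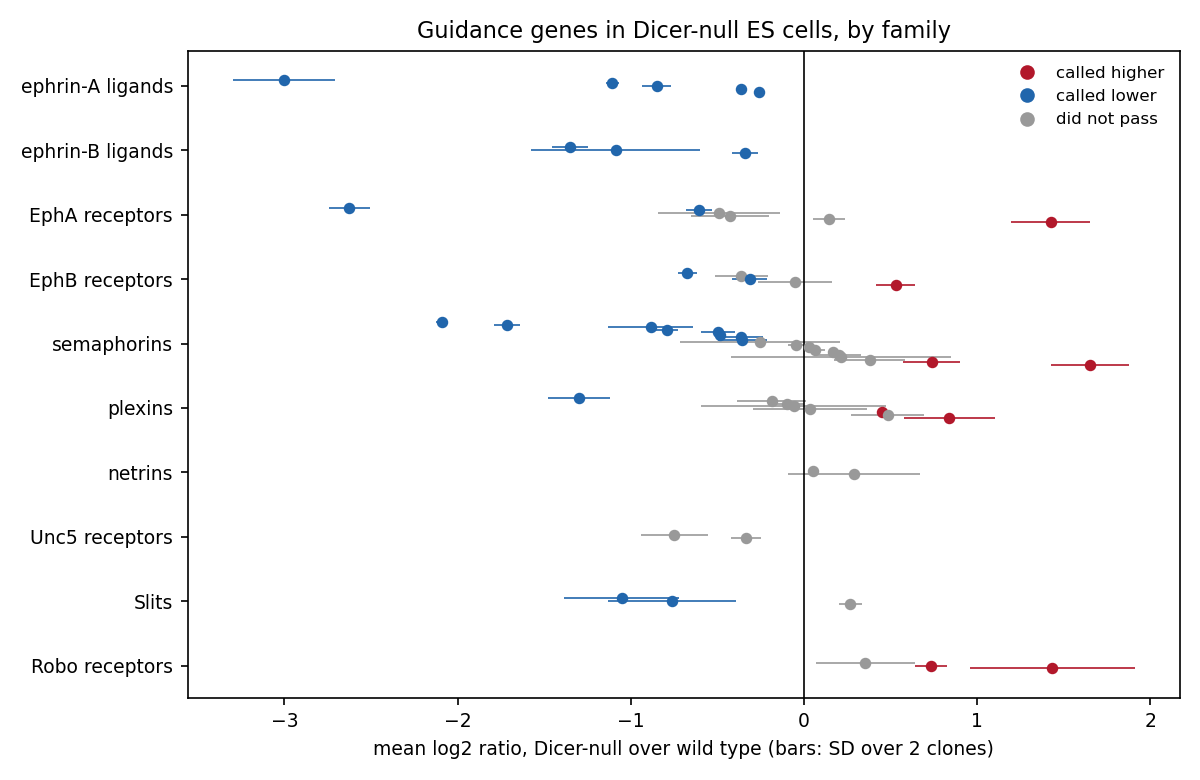
Mean log2 ratio of each of the 55 tested guidance genes in Dicer-null over wild-type cells, grouped by family. Bars are the SD over 2 clones and colours give the call; all 8 ephrin ligands lie below 0, and the Robo receptors above it.

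All 8 ephrin ligands were called lower in Dicer-null cells, against 20.1% of all genes. Efna5, a ligand tethered to the membrane by a lipid anchor, had log2 ratios of -3.11 and -2.48 on the arrays of clone 27G5 and of -3.37 and -3.05 on those of clone 27H10. It lay below 0 on every array, at a mean of -3.00 ± 0.30, or 8.02-fold lower in Dicer-null cells (adjusted p = 0.000138). This was the lowest ratio among the 55 genes. Its probe is at chr17:60811930-60811989 on build mm7, and the promoter printed above has the most CpG of the 5 shown. A second Efna5 probe, well above background on 6 arrays, was at -0.15 ± 0.05, so the 2 probes differ widely in size.

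The other ephrin-A ligands share the same lipid anchor. Efna2 was at -1.08 in 27G5 and -1.13 in 27H10 (adjusted p = 0.000743), and Efna1 at -0.79 and -0.91 (adjusted p = 0.00433). Efna3, at -0.36 ± 0.01, and Efna4, at -0.26 ± 0.01, were close to the threshold, with adjusted p of 0.0448 and 0.0422. With the clone as a block in the fit, these were 0.0514 and 0.0688, which ended both calls. Of the alternative ways of processing that kept both clones, 6 ended the Efna3 call and 7 the Efna4 call. The probes of Efna1, Efna3 and Efna4 lie beside each other on chromosome 3 of mm7, at chr3:89398658-89398717, chr3:89441310-89441369 and chr3:89460922-89460981. The 3 neighbours thus moved in 1 direction, Efna1 the most.

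The ephrin-B ligands span the membrane and signal back into their own cell. Efnb1, on the X chromosome, had ratios of -1.47 and -1.08 in 27G5 and -1.49 and -1.35 in 27H10, a mean of -1.35 ± 0.10 (adjusted p = 0.000312). Efnb2, a ligand of vessels and somites, was at -1.43 in 27G5 and -0.74 in 27H10, a mean of -1.09 ± 0.49 (adjusted p = 0.0146), and its second probe gave -0.49. The clones differed more in Efnb2 than in any other ephrin ligand, and both lay below 0. Efnb3 was at -0.34 ± 0.07 (adjusted p = 0.0198), and 1 alternative way of processing that kept both clones ended this call.

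The Eph receptors moved in both directions. Of 11 tested, 4 were called lower, 2 were called higher and 5 did not pass. The called share was 50% of the 6 tested EphA and 60% of the 5 tested EphB receptors, against 40.4% of all genes. With so few genes these shares are not a result about the receptors. Epha1, the founding member of the family and an epithelial receptor, had ratios of -2.73 and -2.36 in 27G5 and -2.87 and -2.54 in 27H10, a mean of -2.63 ± 0.12, or 6.17-fold lower in Dicer-null cells (adjusted p = 0.000174). All 4 arrays lay in a narrow range far below 0. Epha4, a receptor that binds ephrins of both classes, ran the other way, with 1.23 and 1.29 in 27G5 and 1.62 and 1.55 in 27H10. Its mean was 1.42 ± 0.23, or 2.68-fold higher (adjusted p = 0.00204), and its second probe gave 1.39.

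The remaining receptor calls were smaller. Ephb4, the partner of Efnb2 in vessels, was at 0.53 ± 0.11 (adjusted p = 0.0368), and its second probe at 0.25; with the mean over its probes, 0.39, the call was lost. Ephb3 was at -0.67 ± 0.05 (adjusted p = 0.00925). Epha8 was well above background on no array of Dicer-null cells and on 4 of 4 in wild-type cells, which gives at least 1.46-fold lower in Dicer-null cells (adjusted p = 0.00208). Ephb1 was well above background on 1 of 4 arrays in Dicer-null and 3 of 4 in wild-type cells, at -0.31 ± 0.10 (adjusted p = 0.023). Such bounds raise a dim channel to its lowest signal well above background. Epha8 and Ephb1 entered the test through the wild-type side alone. Epha2, the brightest ephrin system gene that did not pass, was at -0.59 in 27G5 and -0.27 in 27H10 (adjusted p = 0.101).

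**Figure D2:**
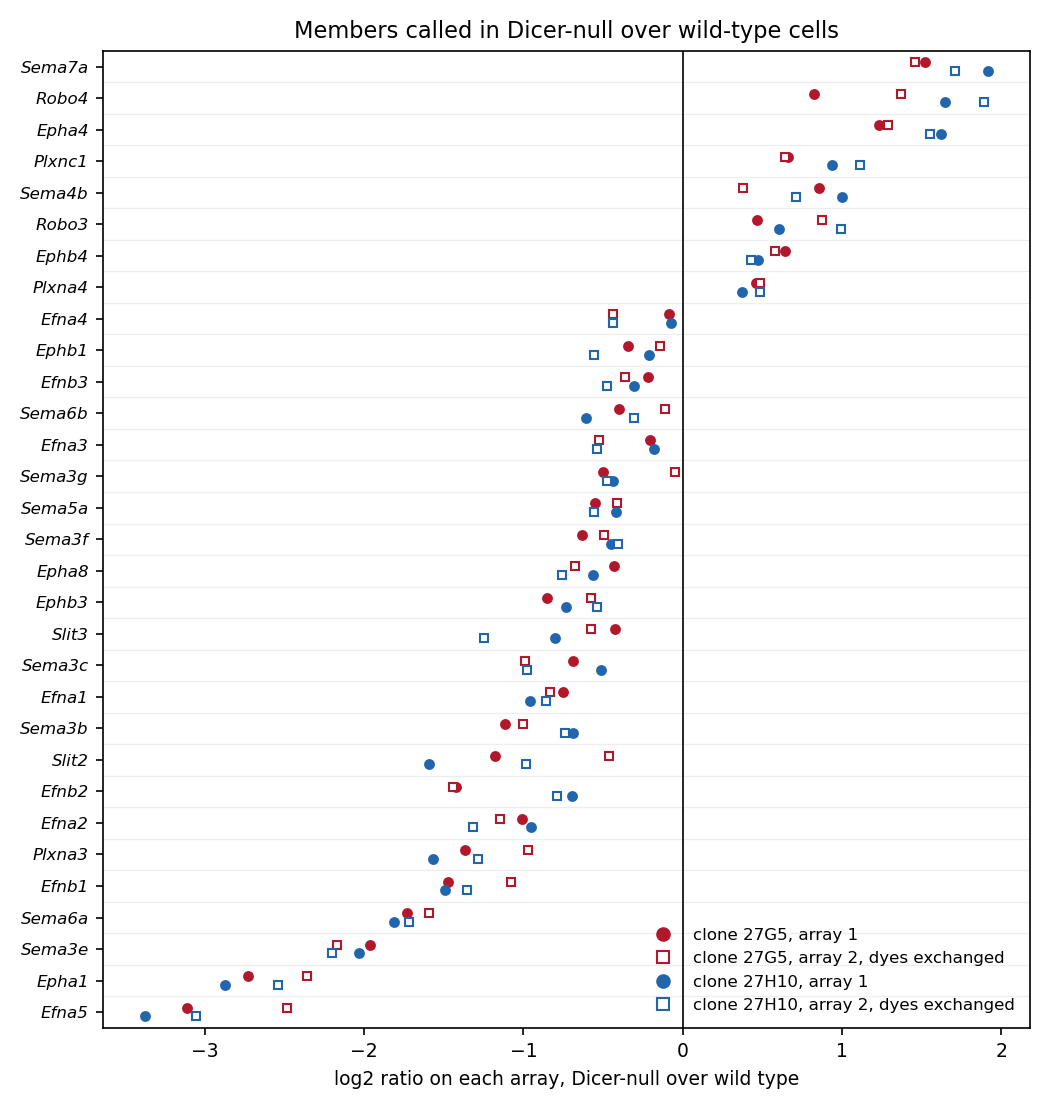
Log2 ratio of Dicer-null over wild-type cells on each of 4 arrays for the 31 called guidance genes, highest mean at the top. Colours give the clone and filled or open signs the dye orientation; no gene has arrays on both sides of 0, and Sema7a and Efna5 are the ends of the range.

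Among the 18 tested semaphorins, 8 were called lower and 2 higher in Dicer-null cells. These shares were 44.4% and 11.1%, against 20.1% and 20.4% of all genes. The lower ones were mostly class 3, the secreted semaphorins: Sema3b, Sema3c, Sema3e, Sema3f and Sema3g of that class, with Sema5a, Sema6a and Sema6b of the membrane classes. Sema3e, the ligand of Plxnd1 in vessel patterning, had ratios of -1.96 and -2.17 in 27G5 and -2.03 and -2.20 in 27H10. The 4 arrays nearly coincided, at a mean of -2.09 ± 0.03, or 4.26-fold lower (adjusted p = 0.000104); its second probe gave -1.06.

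Sema6a, a membrane-bound ligand of Plxna4 and Plxna2, had ratios of -1.73 and -1.59 in 27G5 and -1.81 and -1.72 in 27H10. It failed to reach well above background on the 4 arrays of Dicer-null cells and reached it on 4 of 4 of wild-type cells, so its fold is a bound of at least 3.24-fold lower in Dicer-null cells (adjusted p = 0.00017) for this probe. A second Sema6a probe, well above background on 6 of the 12 arrays, was at -0.42 ± 0.03, a smaller difference than that bound. Sema3c was likewise dim in Dicer-null cells alone, at least 1.70-fold lower by its brightest probe (adjusted p = 0.000945), while its second probe was at -0.18 ± 0.05. Both brightest probes passed the filter only because wild-type cells had signal. Sema3b and Sema3f, whose probes neighbour each other at chr9:107328009-107328068 and chr9:107411904-107411963 on mm7, were at -0.89 ± 0.25 and -0.50 ± 0.10 (adjusted p = 0.00188 and 0.00632). Sema5a was at -0.49 ± 0.01, Sema3g at -0.36 ± 0.13 and Sema6b at -0.36 ± 0.14, with adjusted p of 0.00505, 0.0182 and 0.021.

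The 2 semaphorins called higher are a lipid-anchored and a membrane-spanning ligand. Sema7a, the lipid-anchored one, which acts through integrins and Plxnc1, had ratios of 1.52 and 1.46 in 27G5 and 1.91 and 1.71 in 27H10. Its mean of 1.65 ± 0.23, or 3.14-fold higher in Dicer-null cells (adjusted p = 0.00102), was the highest among the 55 genes. Sema4b was at 0.62 in 27G5 and 0.85 in 27H10 (adjusted p = 0.00851). The other 8 tested semaphorins did not pass. Among them Sema5b was at 0.17 ± 0.003 by its brightest probe, the only one tested. Its further probes, also well above background on all 12 arrays, were at 0.63 ± 0.13 and 0.75 ± 0.06.

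Plexins, the semaphorin receptors, showed 2 genes higher, 1 lower and 5 that did not pass. The called share, 37.5%, was near the 40.4% of all genes, so the count is not a result about plexins. Plxnc1, the receptor of Sema7a, had ratios of 0.66 and 0.64 in 27G5 and 0.94 and 1.11 in 27H10, a mean of 0.84 ± 0.26 (adjusted p = 0.00419); its second probe was at 0.15. The ligand Sema7a and its receptor Plxnc1 were thus both higher in Dicer-null cells. Plxna3, a co-receptor for secreted semaphorins, was at -1.17 in 27G5 and -1.43 in 27H10 (adjusted p = 0.00268), with -0.43 on its second probe. Plxna4 was at 0.45 ± 0.03 (adjusted p = 0.00659). Plxnb2, the brightest gene of the semaphorin system that did not pass, was at 0.48 ± 0.21 (adjusted p = 0.129). Plxnb1 did not pass by its brightest probe, at -0.19 ± 0.20, while its second probe was at -0.63 ± 0.19.

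In the Slit and Robo system the ligands called were lower and the receptors called were higher. Slit2 was at -0.82 in 27G5 and -1.29 in 27H10 (adjusted p = 0.0123), and Slit3 at -0.50 and -1.02 (adjusted p = 0.00856). The second probes of Slit2 and Slit3 gave -0.52 and -0.78. Both secreted ligands lay below 0 in each clone. Slit1, the third, is the brightest gene of this system called in none of the 3 comparisons, and was at 0.27 ± 0.07 (adjusted p = 0.051).

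Robo4, the Robo receptor of blood vessel lining, had ratios of 0.83 and 1.37 in 27G5 and 1.65 and 1.89 in 27H10, a mean of 1.43 ± 0.48, or 2.70-fold higher in Dicer-null cells (adjusted p = 0.00499). All arrays of clone 27H10 exceeded those of clone 27G5. Robo3, a receptor of crossing axons, was at 0.67 in 27G5 and 0.80 in 27H10 (adjusted p = 0.0126). Their probes are neighbours on mm7, at chr9:37342570-37342629 for Robo4 and chr9:37344793-37344852 for Robo3. Robo1 was at 0.35 and did not pass. Of the endothelial markers, Kdr was called higher in Dicer-null cells (1.67), while Cdh5, Esam, Tek and Tie1 did not pass and Emcn was too dim to be tested; the summed signal of the 5 tested was 1822 to 2039 in Dicer-null and 1504 to 1730 in wild-type cells. The part of other cells in the Robo4 result was not tested.

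Neither netrin and neither Unc5 receptor was called in Dicer-null over wild-type cells. Ntn1, the main netrin of the midline, was at 0.29, and Ntn4 at 0.05. In this comparison Ntn4 was well above background on no array of Dicer-null cells and on 1 of wild-type cells. Unc5b, a netrin receptor of vessels and the brightest gene of this system that did not pass, was at -0.89 in 27G5 and -0.61 in 27H10 (adjusted p = 0.091).

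Markers of other cell types also differed between Dicer-null and wild-type cells, where 20.1% of all genes were called lower and 20.4% higher. Of the 7 tested fibroblast markers 5 were lower and 1, Dcn, was higher, and their summed signal was 2751 to 3450 in Dicer-null and 8838 to 9501 in wild-type cells; Lum was too dim to be tested. Of the 8 trophoblast markers 5 were lower and 1, Elf5, was higher, with a summed signal of 14663 to 32440 in Dicer-null and 54775 to 118112 in wild-type cells. Of the 8 primitive endoderm markers 4 were lower, with 2012 to 2848 in Dicer-null and 3597 to 3968 in wild-type cells. Of the 7 tested neural markers 2 were higher and 1 lower, near the shares of all genes, so this count is not a result about neural markers. The part of these cell types in the lower ephrin, semaphorin and Slit values was not tested.

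Genes acting beside or below these cues moved in both directions in Dicer-null over wild-type cells. So did all genes tested, of which 20.4% were called higher and 20.1% lower, so the counts below are not a result about these lists. Of 9 tested co-receptors and other guidance genes, 3 were called higher and 1 lower: Rgma, a repulsive ligand of the Neo1 receptor, was at 2.52 ± 0.19 and Dcc, the attractive netrin receptor, at 0.39 ± 0.09, while Flrt3, a partner of Unc5 receptors, was at -2.04 ± 0.25. Of 15 semaphorin effectors, 4 were higher and 3 lower, with Farp2, an exchange factor of plexin signalling, at 1.60 ± 0.38 and Rnd1, a plexin-binding GTPase, at -2.59 ± 0.08. Of 14 ephrin effectors, 4 were higher and 3 lower, with Arhgef15 at 0.82 ± 0.02 and Vav3 at -0.90 ± 0.13. Of 9 Slit and Robo effectors, 1 was higher and 1 lower, with Abl1 at 0.44 ± 0.09 and Gpc1, a heparan sulphate proteoglycan, at -2.13 ± 0.10. The median was 0.05 for the co-receptors and other guidance genes. It was -0.04, 0.04 and 0.18 for the semaphorin, the ephrin and the Slit and Robo effectors. Over the 55 guidance genes it was -0.26, with -0.85 for the ephrin-A ligands and -0.01 for the plexins.

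The labelled lines were then compared with their Dicer-null parents. The lines labelled Dnmt3a,3b had 5 of 55 guidance genes called higher and 6 called lower relative to Dicer-null cells, against 21.2% of all genes called, 10.4% higher and 10.8% lower. The lines labelled Dnmt1 had 5 called higher and 9 lower, against 23% of all genes called, 12% higher and 11% lower. The shares of guidance genes called, 20% and 25.5%, are near those of all genes, so these counts are not a result about the guidance genes. Their medians were 0.05 and 0.03, against 0.01 over all genes in each. These calls rest on both clones, since leaving out either clone's ratio leaves 1 ratio in the comparison. All the calls in the lines labelled Dnmt3a,3b were then lost, and some of those in the lines labelled Dnmt1. Both comparisons share the Dicer-null RNA of each clone, so their values are given side by side and not as support for each other.

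**Figure D3:**
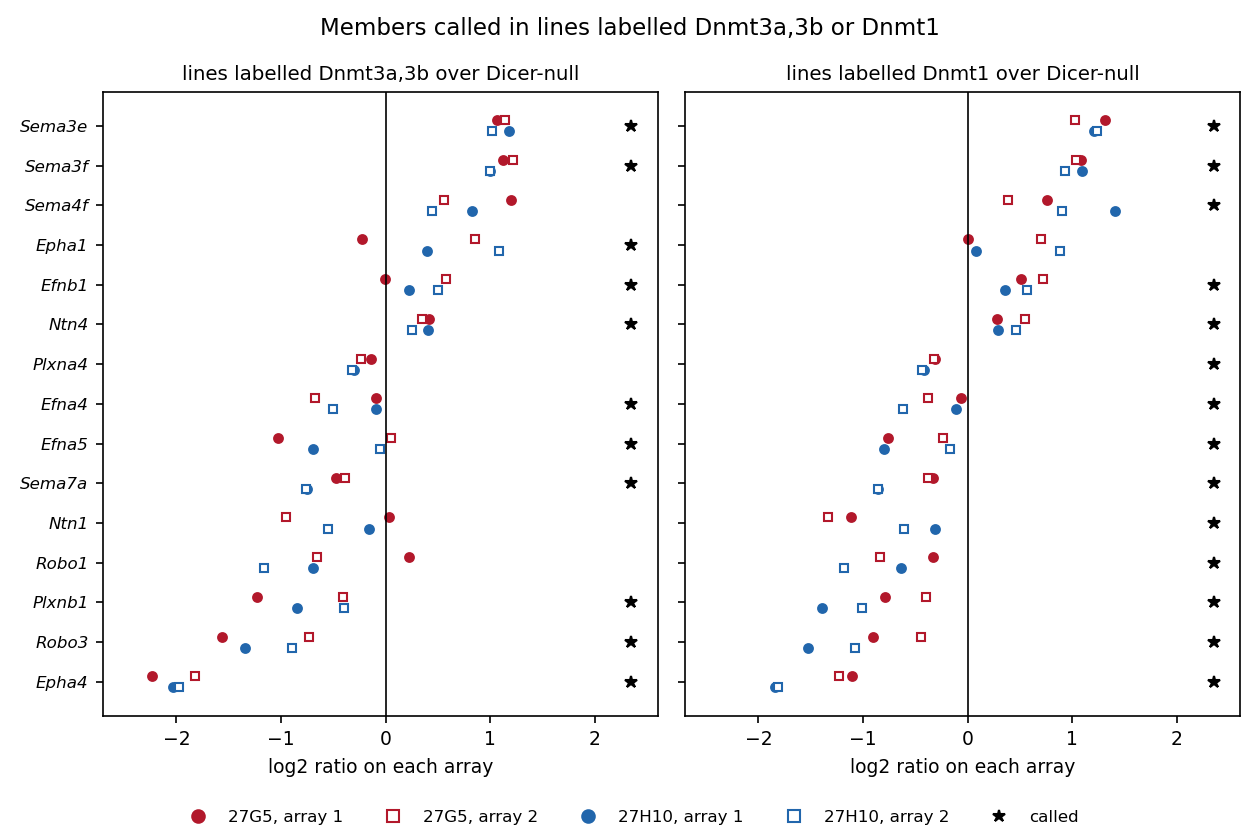
Log2 ratio on each array of the guidance genes called in the lines labelled Dnmt3a,3b (left) or Dnmt1 (right) over Dicer-null cells. Colours give the clone, filled or open signs the dye orientation and stars the calls; Sema3e and Sema3f lie near 1 on every array, and Epha4 is the lowest in both panels.

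The 4 largest of these differences in each line were those of Epha4, Robo3, Sema3e and Sema3f. Epha4 had ratios of -2.23 and -1.82 in 27G5 and -2.03 and -1.98 in 27H10 of the lines labelled Dnmt3a,3b, a mean of -2.02 ± 0.02, or 4.04-fold lower than in Dicer-null cells (adjusted p = 0.00359). In the lines labelled Dnmt1 it had -1.11 and -1.23 in 27G5 and -1.84 and -1.82 in 27H10, a mean of -1.50 ± 0.47, or 2.82-fold lower (adjusted p = 0.00561). All 8 arrays lay below -1, and in the lines labelled Dnmt1 the clones did not overlap. The second Epha4 probe gave -1.35 and -0.94.

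Epha1, the receptor that was low in Dicer-null cells, was at 0.53 ± 0.30 in the lines labelled Dnmt3a,3b (adjusted p = 0.0334), with array values of -0.23 and 0.85 in 27G5 and 0.40 and 1.08 in 27H10. One of its 4 arrays lay below 0. It was at 0.42 and did not pass in the lines labelled Dnmt1.

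Of the ephrin ligands, Efnb1 was higher and Efna4 and Efna5 were lower in both kinds of line, each by a small amount. Of the 11 genes called in the lines labelled Dnmt3a,3b, only 8 had 1 sign on their 4 arrays. Those without were Epha1 and genes among these ligands, whose small SD over clones does not show arrays that disagreed in sign. All 14 genes called in the lines labelled Dnmt1 had 1 sign on their 4 arrays. Efnb1 was at 0.32 ± 0.05 in the lines labelled Dnmt3a,3b (adjusted p = 0.0443, or 0.0603 with the clone block, which ended the call) and, in the lines labelled Dnmt1, had 0.51 and 0.72 in 27G5 and 0.36 and 0.57 in 27H10 (mean 0.54 ± 0.11, adjusted p = 0.0116). Efna5 was at -0.43 ± 0.08 (adjusted p = 0.0485, or 0.0629 with the clone block, which ended the call) in the lines labelled Dnmt3a,3b and at -0.49 ± 0.01 (adjusted p = 0.0329) in those labelled Dnmt1. Its second probe lay at 0.06 and 0.05, on the other side of 0, and with the mean over its probes neither call remained. Efna4 was at -0.34 ± 0.06 (adjusted p = 0.0314, or 0.051 with the block) and -0.29 ± 0.10 (adjusted p = 0.0444, or 0.0691 with the block), so that both its calls ended with the block.

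Sema3e and Sema3f, both secreted class 3 ligands, were higher in each line. Sema3e had ratios of 1.07 and 1.14 in 27G5 and 1.18 and 1.02 in 27H10 of the lines labelled Dnmt3a,3b (SD over clones 0.003, adjusted p = 0.00248). The lines labelled Dnmt1 had 1.31 and 1.02 in 27G5 and 1.20 and 1.24 in 27H10 (mean 1.19 ± 0.04, adjusted p = 0.00177). Sema3e was thus 2.14-fold and 2.29-fold higher than in Dicer-null cells, with little spread.

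Sema3f, a ligand of the Nrp2 receptor complex, had 1.12 and 1.22 in 27G5 and 1.00 and 0.99 in 27H10 of the lines labelled Dnmt3a,3b (mean 1.08 ± 0.12, adjusted p = 0.00318). The lines labelled Dnmt1 had 1.08 and 1.04 in 27G5 and 1.09 and 0.93 in 27H10 (mean 1.04 ± 0.04, adjusted p = 0.00301). The 8 arrays lay between 0.93 and 1.22. The second probes of both genes were higher too: for Sema3e at 0.82 and 0.78, and for Sema3f at 0.87 and 0.81.

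Sema4f, a membrane-spanning semaphorin, was called in the lines labelled Dnmt1 alone, with 0.76 and 0.38 in 27G5 and 1.41 and 0.90 in 27H10 (mean 0.86 ± 0.42, adjusted p = 0.0343). It was at 0.76 and did not pass in the lines labelled Dnmt3a,3b, and the difference between the lines did not pass either. Sema7a, the semaphorin that was high in Dicer-null cells, had -0.48 and -0.39 in 27G5 and -0.75 and -0.76 in 27H10 of the lines labelled Dnmt3a,3b (mean -0.59 ± 0.23, adjusted p = 0.0487), and was at -0.61 ± 0.36 in the lines labelled Dnmt1 (adjusted p = 0.044). With the clone block these p-values were 0.0562 and 0.0516, which ended both calls.

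Among the receptors of semaphorins and Slits, the calls in the labelled lines were all lower. Plxnb1, a receptor of class 4 semaphorins, had -1.23 and -0.41 in 27G5 and -0.85 and -0.40 in 27H10 of the lines labelled Dnmt3a,3b (mean -0.72 ± 0.14, adjusted p = 0.0309). In the lines labelled Dnmt1 it had -0.79 and -0.40 in 27G5 and -1.39 and -1.01 in 27H10 (mean -0.90 ± 0.43, adjusted p = 0.0169). Every array lay below 0, but the second Plxnb1 probe, also well above background on all 12 arrays, was at 0.004 and -0.16. Plxna4 was at -0.37 ± 0.08 in the lines labelled Dnmt1 (adjusted p = 0.0245) and at -0.25, not passing, in those labelled Dnmt3a,3b.

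Robo3 had -1.56 and -0.74 in 27G5 and -1.35 and -0.89 in 27H10 of the lines labelled Dnmt3a,3b (mean -1.13 ± 0.02, adjusted p = 0.00844). In the lines labelled Dnmt1 it had -0.91 and -0.45 in 27G5 and -1.52 and -1.08 in 27H10 (mean -0.99 ± 0.44, adjusted p = 0.0114). Robo3 was thus lower on all 8 arrays, and its second probe gave -0.86 and -0.71. Robo1 was at -0.75 ± 0.23 in the lines labelled Dnmt1 (adjusted p = 0.045) and at -0.57, not passing, in those labelled Dnmt3a,3b. Robo4 did not pass in either line, at -0.19 and -0.39.

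The 2 netrins split. Ntn4, a laminin-like netrin of basement membranes, had 0.42 and 0.35 in 27G5 and 0.40 and 0.25 in 27H10 of the lines labelled Dnmt3a,3b, where it was well above background on 3 of 4 arrays, against none in Dicer-null cells, so it was at least 1.25-fold higher (adjusted p = 0.0219). It was at 0.39 ± 0.03 in the lines labelled Dnmt1 (adjusted p = 0.0164). There it was well above background on 4 of 4 arrays, against 2 of 4 in Dicer-null cells. Ntn4 was thus well above background mainly in the lines where it was called higher, which limits both calls. Ntn1 had -1.12 and -1.34 in 27G5 and -0.31 and -0.61 in 27H10 of the lines labelled Dnmt1 (mean -0.85 ± 0.54, adjusted p = 0.0389), and was at -0.41, not passing, in the lines labelled Dnmt3a,3b. Its clones did not overlap in the lines labelled Dnmt1.

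Of the genes acting beside or below the cues, Rgma was at -1.37 ± 0.08 in the lines labelled Dnmt3a,3b and -1.14 ± 0.45 in those labelled Dnmt1; of its list of 9, 2 and 1 were called higher and 1 and 2 lower. Of the 15 semaphorin effectors, 1 and 3 were called higher and 3 and 3 lower. The lowest there was Crmp1, a collapsin response mediator, at -1.55 ± 0.25 and -1.72 ± 0.68. Of 14 ephrin effectors 2 were higher and none lower in either line, among them Chn2, a Rac-inactivating protein, at 0.86 ± 0.04 and 1.03 ± 0.25. Of 9 Slit and Robo effectors 2 were higher and 1 lower in each line, with Srgap3, a Robo-binding Rac inactivator, at 1.14 ± 0.02 and 1.15 ± 0.07. Over all genes 21.2% were called in the lines labelled Dnmt3a,3b and 23% in those labelled Dnmt1. No list was tested against those shares, so the counts are not a result about the lists.

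In the lines labelled Dnmt3a,3b 10.4% of all genes were called higher and 10.8% lower, and in those labelled Dnmt1 12% and 11%. No marker list was tested against these shares. Trophoblast markers rose in these lines. Of 8 markers, 6 were called higher in the lines labelled Dnmt3a,3b than in Dicer-null cells, with a summed signal of 69004 to 139400 against 18812 to 31336; in the lines labelled Dnmt1 5 of 8 were, with 68607 to 174289 against 18947 to 30054. Of the 7 tested neural markers 4 were lower and 1 higher in each line, with 7540 to 9551 in the lines labelled Dnmt3a,3b against 9827 to 13152 in Dicer-null cells, and 7067 to 11743 in the lines labelled Dnmt1 against 9898 to 13129. Of the 7 tested fibroblast markers 1, Pdgfrb, was higher in each line, and 2 were lower in the lines labelled Dnmt3a,3b and 3 in those labelled Dnmt1, with Dcn the lowest at -2.52 ± 0.15 and -2.45 ± 0.06. Their summed signal was 2174 to 3075 in the lines labelled Dnmt3a,3b against 2578 to 3408 in Dicer-null cells, and 2143 to 2373 in the lines labelled Dnmt1 against 2443 to 3332. Of the 5 tested endothelial markers Cdh5 was higher, at 1.63 ± 0.21 and 1.79 ± 0.45, and Kdr lower, at -1.13 ± 0.08 and -1.31 ± 0.03. The endothelial sums overlapped, at 1334 to 2023 in the lines labelled Dnmt3a,3b against 1794 to 1893 in Dicer-null cells, and at 1347 to 1874 in the lines labelled Dnmt1 against 1749 to 1857. Of the 8 primitive endoderm markers 2 were higher in the lines labelled Dnmt3a,3b, and 1 was higher and 1 lower in those labelled Dnmt1. The part of such cells in the Sema3e, Sema3f, Epha4 and Robo3 values was not tested.

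The lines labelled Dnmt3a,3b and Dnmt1 were next set against each other within the fit. None of the 55 guidance genes was called by limma, and 0 had an unadjusted p under 0.05; of all 20048 genes 0% were called and 189 had an unadjusted p under 0.05. The differences, Dnmt3a,3b minus Dnmt1, ran from -0.52 for Epha4 to 0.44 for Ntn1, with a median size of 0.07. For 49 of the 55 genes the 95% interval of the difference lay within 1 log2 unit on either side of 0; the exceptions were Efnb2, Epha4, Ntn1, Sema4a, Sema4g and Unc5b. Epha4 differed by -0.86 in 27G5 and -0.18 in 27H10 (95% interval -1.11 to 0.07, unadjusted p = 0.075), and Sema3e by -0.09 (95% interval -0.34 to 0.15). Differences smaller than these intervals were not detectable with 2 clones. The fit took the 2 ratios of a clone as independent, though they share its Dicer-null RNA. Their clone deviations correlated at 0.36, so these intervals may be too wide. With shared RNAs modelled, 1 guidance gene and 250 of all genes had an unadjusted p under 0.05, and 0 were called. The lack of calls does not show that the lines are alike.

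Adding the 2 log2 ratios that lead through the Dicer-null RNA of a clone places each labelled line against wild type, as a value without a test. Epha4 was at -0.59 ± 0.24 in the lines labelled Dnmt3a,3b and -0.07 ± 0.24 in those labelled Dnmt1, against 1.42 ± 0.23 in Dicer-null cells, all relative to wild type. Robo3 stood at -0.40 ± 0.11 and -0.25 ± 0.35, against 0.73 ± 0.09 in Dicer-null cells. By these probes, the brightest of each gene, both receptors were above wild type in Dicer-null cells and their means were below it in the labelled lines, but in the lines labelled Dnmt1 both lay within 1 SD of 0. The second Epha4 probe did not lie below wild type: it was at 0.04 ± 0.02 in the lines labelled Dnmt3a,3b and 0.45 ± 0.32 in those labelled Dnmt1, against 1.39 in Dicer-null cells. The second Robo3 probe was at -0.28 ± 0.14 and -0.12 ± 0.21, against 0.59 in Dicer-null cells.

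The semaphorins differed in how far they were from wild type. Sema3f was at 0.59 ± 0.03 and 0.54 ± 0.06 in the lines labelled Dnmt3a,3b and Dnmt1, above wild type, against -0.50 ± 0.10 in Dicer-null cells. Sema3e was at -0.99 ± 0.04 and -0.90 ± 0.002, against -2.09 ± 0.03, below wild type in every line. On their second probes Sema3f was at 0.17 ± 0.03 and 0.10 ± 0.02, against -0.71 in Dicer-null cells, and Sema3e at -0.24 ± 0.02 and -0.28 ± 0.18, against -1.06. Sema7a was at 1.06 ± 0.002 and 1.04 ± 0.13, against 1.65 ± 0.23, above wild type in every line.

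The 2 lowest genes of the Dicer-null cells stayed far below wild type by this sum. Efna5 was at -3.43 ± 0.21 in the lines labelled Dnmt3a,3b and -3.49 ± 0.28 in those labelled Dnmt1, against -3.00 ± 0.30 in Dicer-null cells. Its second, dimmer probe was at -0.09 ± 0.06 and -0.10 ± 0.15, against -0.15, so the distance rests on 1 probe. Epha1 was at -2.10 ± 0.19 and -2.21 ± 0.03, against -2.63 ± 0.12. Robo4 was at 1.24 ± 0.44 and 1.04 ± 0.06, against 1.43 ± 0.48, above wild type throughout.

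**Figure D4:**
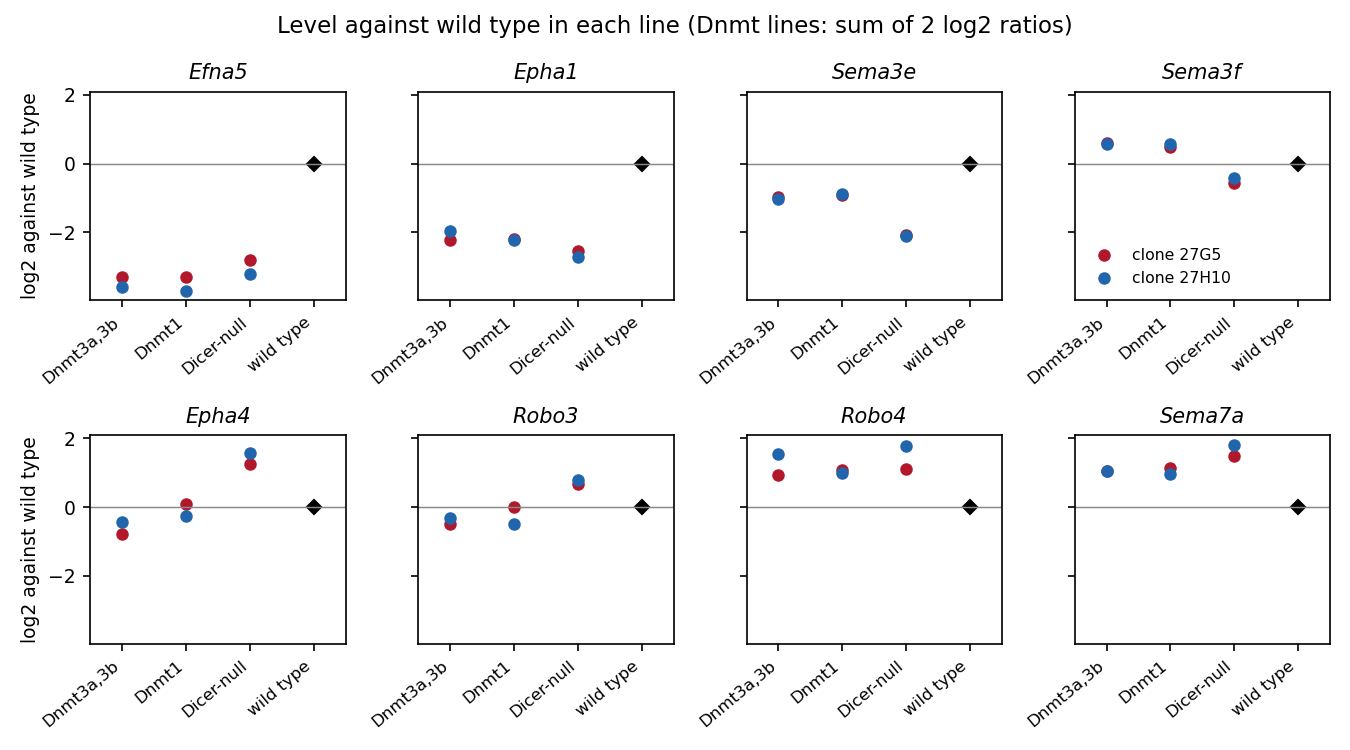
Log2 level relative to wild type (diamond at 0) of 8 guidance genes in the lines labelled Dnmt3a,3b and Dnmt1 and in Dicer-null cells, by the brightest probe, with 1 point for each of 2 clones. The values of the labelled lines are sums of 2 log2 ratios; Efna5 and Epha1 lie near -2 or below in every line, while the means of Epha4, Robo3 and Sema3f change sides of 0.

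In all, 36 of the 55 tested guidance genes were called in at least 1 comparison and 19 in none. The share of all genes called at least once was not computed. The single comparisons called 40.4% of all genes over wild type, and 21.2% and 23% in the lines labelled Dnmt3a,3b and Dnmt1. The 36 is thus not a result about the guidance genes. Where a called gene had a further probe, its sign was the same in all 14 such results in Dicer-null over wild-type cells, in 6 of 7 in the lines labelled Dnmt1 and in 4 of 6 in the lines labelled Dnmt3a,3b, with Efna5 and Plxnb1 as the exceptions. The array names of Ntn3 and Ntn5 are older ones outside the name rule; Ntn3 was at -0.25 in 27G5 and -0.19 in 27H10 in Dicer-null over wild-type cells.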

How the data were processed

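Per the file headers, the mean and median-background intensity of every spot came from Agilent Feature Extraction 9.5.1.1 (8 arrays) and 9.1.3.1 (4 arrays with wild-type RNA). A log10 ratio of processed signals stands beside them, per the file headers. The ratios of the deposited value table were found to be log2 values, already turned to the first-named cells over their reference (r = 0.968 to 1.00 with the scanner ratios), with column medians of -0.14 to 0.17; its centring is not stated. Columns of per-sample values left unused numbered 0.

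With limma 3.58.1 and statmod 1.5.0 in R 4.3.3, intensities were corrected with normexp (offset 50) and loess within each array, control spots were given no weight, flagged outliers were dropped, and spots of a probe and the 2 arrays of a dye-swapped pair were averaged. The 6 ratios of 7 RNAs were fitted with 1 coefficient for each of 3 comparisons (3 residual degrees of freedom), tested with eBayes and adjusted with Benjamini-Hochberg over 20048 genes. Testing required a probe present on 12 arrays and well above background on both arrays of a pair in the channel of 1 RNA. The fit was tested on simulated data. Each RNA name was taken as 1 RNA, which the labels do not state. Probe positions are on mm7, per the file headers, without an annotation of that build, so exon and UTR were not looked up; RefSeq GRCm38.p6 gave names and promoters. The number of arrays limits the precision.

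Every gene called in any comparison is named; values by array are given for the 4 largest in each comparison and direction, and the brightest gene called in no comparison is named for each system. The members, lists and tests were chosen with earlier results of these data known. The clone pairs the ratios, since the same 2 cultures underlie each comparison; the deviations of the clones correlated at 0.36 between the ratios of the labelled lines, which share RNA, and at -0.06 and -0.13 with those over wild type. Alternatives were another offset, no background correction, the scanner and deposited ratios, median centring, other filters, the mean over probes, shared RNAs modelled, blocks for clone and array number, and leaving out each clone.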

Additional observations from a re-analysis of the deposited data

Results flagged for a closer look

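In 10 results the arrays of clone 27G5 all lay on one side of 0 and those of clone 27H10 all on the other; none of these genes was called in that comparison, and the differences between the clones were not tested. The largest was Unc5b in the lines labelled Dnmt1 over Dicer-null cells, at 0.71 in 27G5 and -0.55 in 27H10, a difference of 1.26. In the same comparison the differences, 27G5 minus 27H10, were -0.83 for Plxnb2, -0.56 for Sema4d, -0.54 for Ephb2, -0.40 for Sema6c, -0.31 for Unc5a and 0.30 for Plxnc1. Unc5a differed by 0.52 in the lines labelled Dnmt3a,3b over Dicer-null cells. In Dicer-null over wild-type cells Plxna2 differed by 0.75, at 0.32 in 27G5 and -0.44 in 27H10, and Ephb6 by 0.30.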

How the results depend on the processing

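Over all alternatives no called result of a guidance gene changed sign. Of the calls, 23 of 31 in Dicer-null over wild-type cells, 6 of 11 in the lines labelled Dnmt3a,3b and 8 of 14 in those labelled Dnmt1 held under every alternative that kept both clones. Those lost in at least 1 were, over wild type, Efna3, Efna4, Efnb3, Ephb1, Ephb4, Sema3g, Sema6b and Slit2. In the lines labelled Dnmt3a,3b they were Efna4, Efna5, Efnb1, Plxnb1 and Sema7a. In those labelled Dnmt1 they were Efna4, Efna5, Ntn1, Robo1, Sema4f and Sema7a. With shared RNAs modelled, 23, 7 and 9 were called, and with array number as a replicate block 38, 23 and 22, in the same order. With the clone as a replicate block 2, 4 and 2 of these calls were lost, and since as many other guidance genes were then called, the counts were again 31, 11 and 14. Leaving out 1 clone gave 13 to 16 calls in Dicer-null over wild-type cells, 0 in the lines labelled Dnmt3a,3b and 9 to 14 in those labelled Dnmt1. The difference between the labelled lines gave 0 calls under all alternatives, including the clone block over the overexpression ratios alone, which was chosen after seeing the data. The cause of these shifts was not tested. Signal over background limits Epha3, Robo2 and Sema3d, which could not be tested, and Sema6a, Sema3c, Epha8 and Ephb1, which were dim in Dicer-null cells. It also limits Ntn4, which was dim in Dicer-null and wild-type cells and well above background mainly in the labelled lines.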
